A study of Homo sapiens with 20 samples.

Results

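The transcript response of the L1236 line to activated FOXO1 was set against the responses of UHO-1 and SUP-HD1. The members are the 12 of 20 arrays titled with those 3 line names, taken by title, and the quantity is the 4-hydroxytamoxifen (4-OHT) minus vehicle difference in L1236 minus the mean of the same difference in UHO-1 and SUP-HD1. It is called the difference of responses below, in log2 units, and a positive value means that L1236 moved higher. All groups were labelled as lines of classical Hodgkin lymphoma that stably express FOXO1(3A)ER, a constitutively active FOXO1 joined to the ligand-binding part of the oestrogen receptor, so the vehicle groups carried the fusion too. The 6 groups were L1236, UHO-1 and SUP-HD1, each with 4-OHT or with ethanol vehicle for 24 h, with 2 arrays a group. The labels call the cells stable expressers and do not say whether a line is 1 clone. The protocol text that gives a dose of 4-OHT names another fusion protein in KM-H2 and L428, so no dose is stated here. No line without the fusion was treated, so 4-OHT itself and FOXO1 activity cannot be told apart.

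FOXO1 is a transcription factor that the PI3K and AKT kinases hold out of the nucleus. When that signalling is low it binds DNA and changes genes of growth control, metabolism and lymphocyte identity. Hodgkin cells descend from germinal centre B cells and have lost much of the B cell programme. In germinal centre B cells FOXO1 works beside BCL6, a repressor that opposes plasma cell differentiation, while PRDM1 drives that differentiation.

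The arrays labelled L1236 went against their label in part. Genes of the T cell receptor complex were high in them: CD3E averaged 12.2 log2 units in both arms, CD3D 11.4 with vehicle and 11.2 with 4-OHT, and TRAT1 11.1 and 11.5. Over 6 T cell markers (CD3D, CD3E, CD3G, CD2, CD247 and TRAT1) the mean level lay between 10.7 and 11.0 in the 4 L1236 arrays and between 5.10 and 5.45 in the 8 arrays of UHO-1 and SUP-HD1. In KM-H2 and L428, which were normalised separately, CD3D averaged 4.82 to 4.85. The mean of 8 Hodgkin markers ran from 7.17 to 7.39 in L1236, against 10.1 to 10.3 in UHO-1 and 9.71 to 9.79 in SUP-HD1. The exception among the 8 was TNFRSF8, which encodes CD30 and averaged 7.76 in L1236 vehicle arrays, above SUP-HD1 (7.15) and below UHO-1 (11.1). Some of the 8 were lower still in KM-H2 vehicle arrays: CD274 (4.71, against 5.85 in L1236), CCL17 (6.70 against 7.26) and GATA3 (7.82 against 9.85). The rest of the 8 were higher there, and in L428 only GATA3 (9.69) was lower than in L1236. PAX5, the B cell identity factor, averaged 6.37 in L1236 vehicle arrays, 9.72 in UHO-1 and 9.42 in SUP-HD1. It was also low in KM-H2 (6.74) and L428 (6.16). The B cell receptor chain CD79A was higher in L1236 (9.33) than in UHO-1 (6.11) or SUP-HD1 (6.63). Below, L1236 means the arrays so labelled and no other cell type name is given to them. The part of this in the results was not tested, and leaving out these arrays leaves no comparison.

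Medians of the 12 arrays ran from 6.26 to 6.41 log2 units, and the SD over genes of the difference between the 2 arrays of a group from 0.133 to 0.205. For arrays there is no read depth, so their number limits the precision. Nothing beyond the statement that the experiment was repeated says that the arrays of a group are separate cultures, so the p-values rest on a spread that may be technical. In bulk RNA, fewer cells of a type and less RNA per cell cannot be told apart.

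Among the genes that moved in opposite directions, a pair carried the forkhead core motif in their promoters, and these are shown because FOXO1 binds that motif. The sequences are RefSeq promoters of GRCh38.p14, from 250 bases before to 50 after the gene's start, both on the minus strand: ELOVL6 at chr4:110198566-110198865 and TXNIP at chr1:145996530-145996829. Capitals mark the motif, GTAAACA.
ELOVL6: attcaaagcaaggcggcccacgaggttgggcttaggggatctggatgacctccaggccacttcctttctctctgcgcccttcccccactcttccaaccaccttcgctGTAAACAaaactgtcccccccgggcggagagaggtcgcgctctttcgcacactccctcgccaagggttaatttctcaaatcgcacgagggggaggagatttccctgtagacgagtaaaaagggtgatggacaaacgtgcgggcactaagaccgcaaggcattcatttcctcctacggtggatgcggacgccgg
TXNIP: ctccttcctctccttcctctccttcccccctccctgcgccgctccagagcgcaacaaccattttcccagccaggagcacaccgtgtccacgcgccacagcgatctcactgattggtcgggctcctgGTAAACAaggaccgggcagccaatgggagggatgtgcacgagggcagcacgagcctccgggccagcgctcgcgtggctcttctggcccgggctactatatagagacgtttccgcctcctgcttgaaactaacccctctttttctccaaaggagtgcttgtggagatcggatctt
The motif began 143 bases before the start of ELOVL6, a fatty acid elongase that fell in L1236, and 124 before that of TXNIP, an inhibitor of thioredoxin and glucose uptake that rose there. GTAAACA or its reverse complement TGTTTAC was found in 275 of the 12229 promoters that matched a tested gene (2.25%). Among those with a called difference of responses it was 74 of 2614 (2.83%). Of the 55 opposite genes, 43 had a matched promoter, and 2 of these held the motif (4.65%). They were 1 of 33 genes that fell in L1236 and 1 of 10 that rose there. A match is a description of these letters, not of binding.

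With 4-OHT, BCL6, the fatty acid enzyme ELOVL6 and the isocitrate dehydrogenase IDH1 fell in L1236 and rose in UHO-1 and SUP-HD1, while FOXO1, RUNX1 and TXNIP did the reverse. The opposite calls of ELOVL6, FOXO1, RUNX1 and TXNIP depended on the processing, as given below. PRDM1, IL7R, EPHA4 and KLF2 rose far more in L1236. The difference of responses passed at an adjusted p below 0.05 (limma, Benjamini-Hochberg) for 3219 of 15654 genes, 20.6%. L1236 moved higher for 1073 (6.85%) and lower for 2146 (13.7%). At 1 log2 unit or more, 114 were higher (0.728%) and 161 lower (1.03%). As a yardstick, the responses of UHO-1 and SUP-HD1 differed from each other for 549 genes (3.51%), with UHO-1 higher for 388 of them (2.48%), in a contrast with somewhat larger variance. Each line also had its own changes. In L1236 22.5% of genes passed (8.18% higher, 14.3% lower with 4-OHT), in UHO-1 21.2% (12.4% and 8.75%), but 5.2% in SUP-HD1 (3.37% and 1.83%), the line with the fewest calls. Against each line taken alone, 1486 of the genes passed with the same sign. Median centring of the arrays shifted the median difference from 0.0081 to -0.092 and changed the split to 566 higher and 2598 lower. Without the second 4-OHT array of L1236, 1973 genes passed, 1214 of them lower, and without its second vehicle array 1358 were lower.

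By line, 1583 of the 3219 genes passed in L1236 and in neither of the other lines, 227 in both of the others and not in L1236, 56 in all 3 in the same direction and 55 in all 3 with L1236 opposite. The remaining 1298 showed other patterns. Across all genes, Pearson's r between responses was 0.069 for L1236 and UHO-1, 0.13 for L1236 and SUP-HD1 and 0.44 for UHO-1 and SUP-HD1. These are descriptions over 15654 genes, which are not independent replicates.

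**Figure D1:**
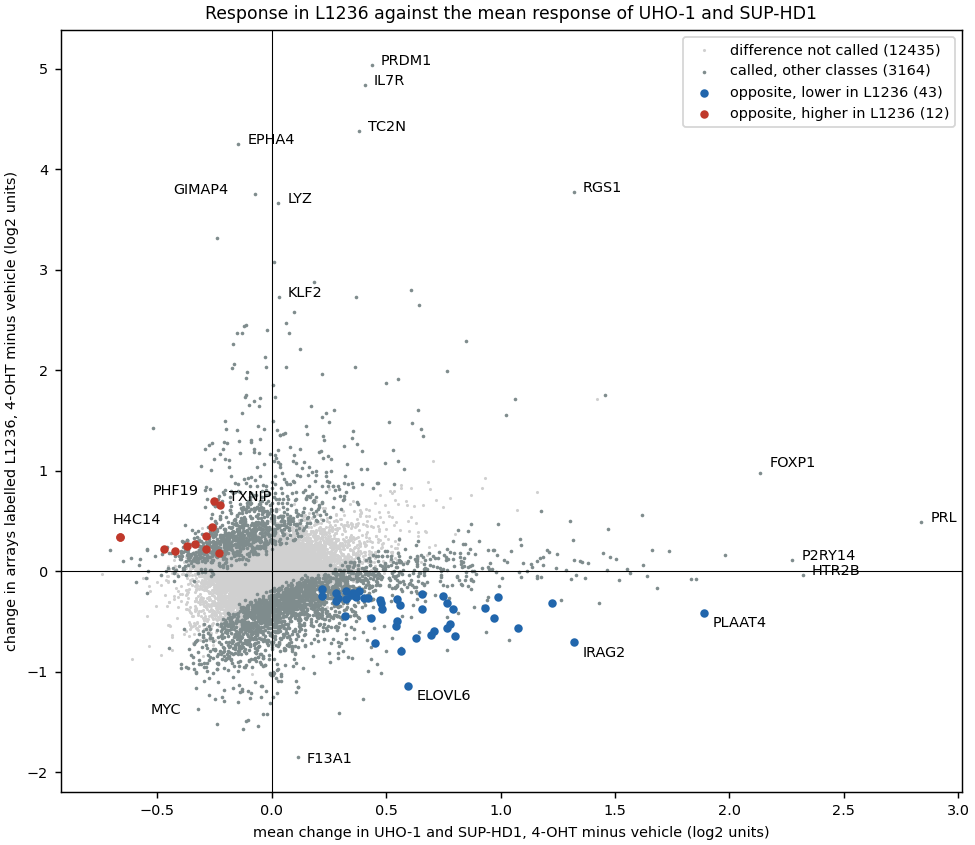
Each point is 1 of 15654 genes. The x axis is the mean change (4-OHT minus vehicle, log2 units) in UHO-1 and SUP-HD1, the y axis the change in L1236; blue marks the 43 genes that fell in L1236 and rose in both others, red the 12 that did the reverse, dark grey the other called genes. PRDM1 and IL7R stand near 5 on the y axis with x below 0.5, and PLAAT4 and IRAG2 are farthest right among the blue points.

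The opposite genes made up 0.351% of genes tested. In 43 (0.275%) L1236 fell while the others rose, and in 12 (0.0767%) L1236 rose while the others fell. In all 55, the vehicle and 4-OHT arrays did not overlap in any line, and the difference passed against each line alone; both follow in large part from how the class was chosen. Changes were moderate. In the 43, the median size in log2 units was 0.34 (L1236), 0.50 (UHO-1) and 0.45 (SUP-HD1). In the 12 it was 0.31, 0.26 and 0.31. The class rests on 3 tests at once and moved with single arrays: 16 genes were in it without SUP-HD1 4-OHT 1, 22 without SUP-HD1 4-OHT 2, 30 without L1236 4-OHT 2, 31 without L1236 vehicle 2, 33 without UHO-1 4-OHT 1, 35 without UHO-1 4-OHT 2 and 36 without UHO-1 vehicle 2. The processing moved the class too: 28 genes were opposite with median centring and 18 without the intensity trend of the fit. In either fit 0 were up in L1236, so FOXO1, RUNX1 and TXNIP left the class. The signs of the 55 stayed opposite, and their difference of responses stayed called, in every alternative in which they were present. The same held when every probe set was tested, with each gene read at its own probe set. In all of these, 6 genes kept the call in each of the 3 lines: BCL6, IDH1, IRAG2, PLAAT4, PLPP1 and TSPAN7.

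BCL6, the germinal centre repressor, read 8.08 and 8.23 log2 units with vehicle and 7.51 and 7.47 with 4-OHT in L1236. In UHO-1 it went from 9.52 and 9.49 to 10.26 and 10.36, and in SUP-HD1 from 9.35 and 9.30 to 9.78 and 9.77. Both 4-OHT arrays lay below both vehicle arrays in L1236 and above them in the other lines, and the vehicle level was lowest in L1236. The L1236 change was -0.66 ± 0.073 (SE, n = 2 arrays per arm, limma adjusted p = 4.48e-06), that of UHO-1 0.81 (8.66e-07) and that of SUP-HD1 0.45 (0.000987). The difference of responses was -1.29 ± 0.090 (adjusted p = 3.66e-08). BCL6 is a known FOXO target in B cells; in L428 it rose by 1.10, and in KM-H2 its change of -0.09 did not pass.

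IDH1, the cytosolic isocitrate dehydrogenase that makes NADPH, fell in L1236 from 10.36 and 10.49 to 9.88 and 9.76. It rose in UHO-1 from 8.79 and 8.69 to 9.55 in both arrays, and in SUP-HD1 from 10.26 and 10.19 to 10.81 and 10.86. L1236 and SUP-HD1 thus began at similar levels and ended about a log2 unit apart. The changes were -0.60 ± 0.068 (adjusted p = 5.69e-06), 0.81 (3.69e-07) and 0.61 (1.91e-05), a difference of -1.31.

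IRAG2, a membrane protein of the endoplasmic reticulum also known as JAW1 or LRMP, is typical of germinal centre B cells. Its L1236 arrays went from 9.94 and 9.98 to 9.34 and 9.17, those of UHO-1 from 8.30 and 8.19 to 10.17 and 10.06, and those of SUP-HD1 from 10.21 and 10.11 to 10.92 and 10.93. UHO-1 moved most and ended above L1236, below which it had started. Its L1236 change was -0.71 ± 0.072 (adjusted p = 1.86e-06). UHO-1 rose by 1.87 (2.01e-11), more than SUP-HD1 with 0.76 (2.83e-06), and these responses also differed from each other (4.35e-06). It rose in KM-H2 by 1.78 and in L428 by 1.72.

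PLAAT4, a phospholipase and acyltransferase induced by retinoids and interferon, had the most negative difference of the 55, -2.30 ± 0.11 (adjusted p = 1.86e-10). In UHO-1 it went from 6.02 and 6.09 to 9.08 and 9.28, an 8.73-fold rise. In SUP-HD1 it rose from 10.83 and 10.62 to 11.40 and 11.35, and in L1236 it fell from 9.38 and 9.43 to 9.08 and 8.90. The fall in L1236 was small beside the rise in UHO-1: -0.41 ± 0.088 (adjusted p = 0.00233) against 3.13. PLAAT4 also rose in KM-H2 (1.91) and L428 (3.29).

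PLPP1, a phosphatase of lipid phosphates at the cell surface, started at like levels in the 3 lines. Vehicle arrays read 7.66 and 7.74 (L1236), 7.74 and 7.62 in UHO-1 and 7.81 and 7.57 in SUP-HD1. With 4-OHT they read 7.31 and 7.16, 8.33 and 8.26, and 9.04 and 9.01 in the same order, so the lines separated with treatment. The difference of responses was -1.44 ± 0.12 (adjusted p = 4.89e-07), with a fall of 0.47 in L1236 and rises of 0.61 and 1.33.

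TSPAN7, a tetraspanin of the cell surface, was named after its values were seen, as the last of the 6 stable genes. It was abundant in L1236 and fell from 12.56 and 12.55 to 12.04 and 11.98. It rose from 6.59 and 6.46 to 7.19 and 7.27 in UHO-1 and from 11.18 and 11.09 to 11.52 and 11.51 in SUP-HD1. The difference was -1.09 ± 0.076 (adjusted p = 3.86e-08), at starting levels about 6 log2 units apart between L1236 and UHO-1.

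**Figure D2:**
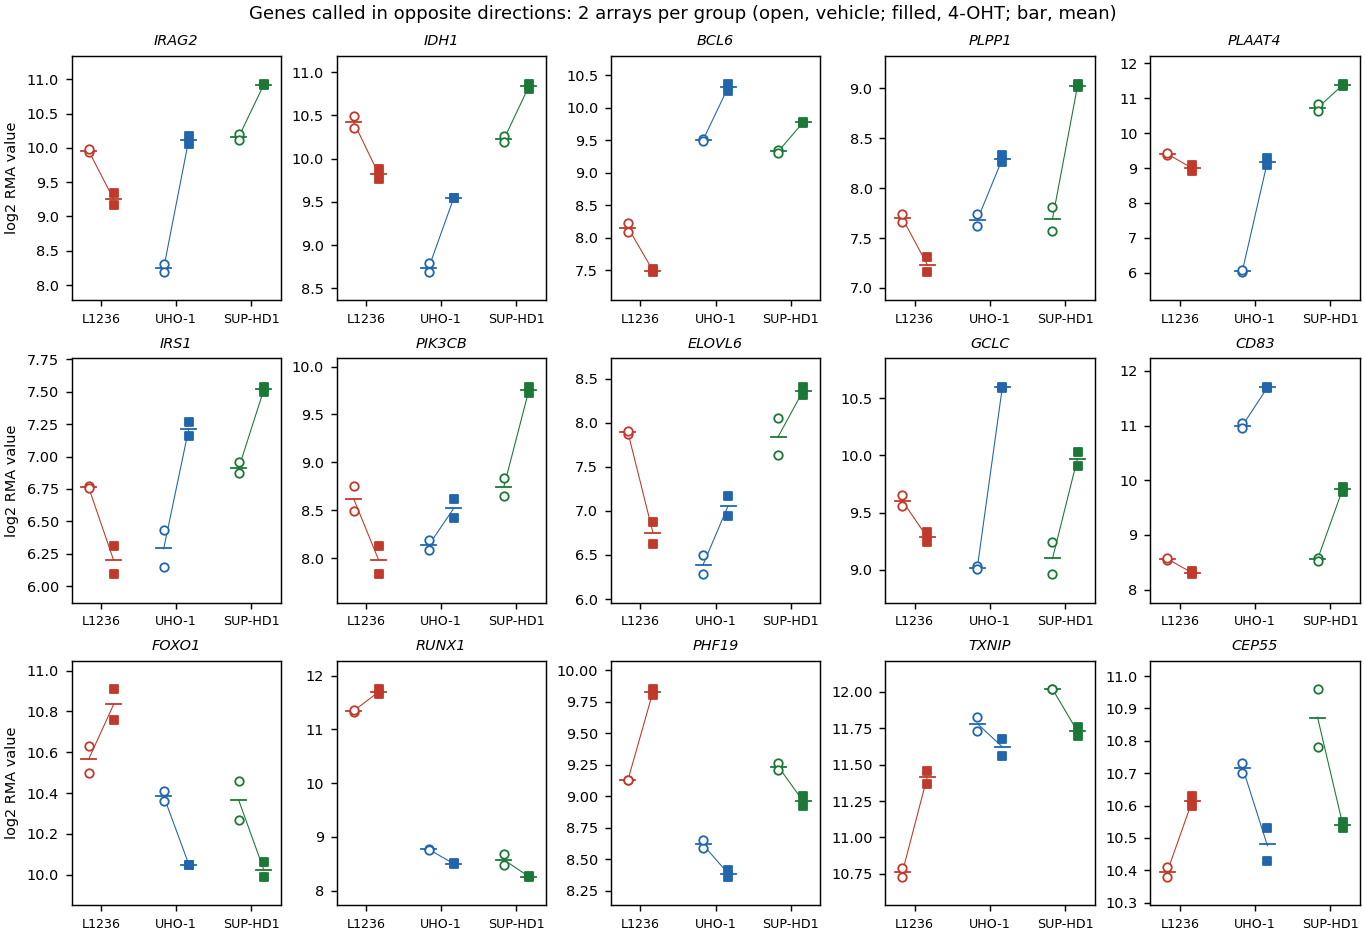
Log2 RMA values (y axis, range set for each panel) of 15 opposite genes in the 12 arrays, by line as labelled (x axis). Open circles are vehicle arrays, filled squares 4-OHT arrays, bars group means. In every panel the 4-OHT points of L1236 lie on the other side of their vehicle points from those of UHO-1 and SUP-HD1.

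ELOVL6, which lengthens saturated fatty acids and whose promoter is printed above, read 7.87 and 7.91 with vehicle and 6.88 and 6.62 with 4-OHT in L1236. In UHO-1 it went from 6.50 and 6.28 to 6.94 and 7.17, and in SUP-HD1 from 8.05 and 7.63 to 8.41 and 8.32. Its fall of 1.14 ± 0.14 in L1236 (adjusted p = 1.25e-05) was the largest of the 43, and it rose by 0.67 (0.00307) and 0.52 (0.0374). ELOVL6 kept the class in 8 of the 11 alternatives that left out no array. The SUP-HD1 call was lost without its second vehicle array or either 4-OHT array (adjusted p up to 0.329), that of UHO-1 without its second 4-OHT array (0.0545). MAN1A1, a mannosidase that trims N-glycans, changed by -0.79, 0.47 and 0.66 in L1236, UHO-1 and SUP-HD1, and rose in KM-H2 (0.84) and L428 (0.86). Its UHO-1 call was lost without UHO-1 vehicle 2 or 4-OHT 1 (0.0852 and 0.0727).

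Insulin and PI3K signalling, which acts upstream of FOXO1, contributed IRS1 and PIK3CB. IRS1, the docking protein of the insulin and IGF1 receptors, went from 6.77 and 6.76 to 6.31 and 6.09 in L1236. It went from 6.15 and 6.43 to 7.16 and 7.27 in UHO-1 and from 6.96 and 6.87 to 7.54 and 7.50 in SUP-HD1, so the treated arrays of those lines were the highest of the 12. The difference was -1.33 ± 0.15 (adjusted p = 8.35e-06). The SUP-HD1 call of IRS1 missed the threshold without either of its 4-OHT arrays (0.0756 and 0.051). PIK3CB, the p110 beta catalytic subunit, changed by -0.64, 0.39 and 1.01 in the same order of lines. The UHO-1 call was lost without 3 of its 4 arrays (adjusted p from 0.0556 to 0.191).

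FZD3, a WNT receptor, changed by -0.57, 0.79 and 1.36, again with L1236 first, with low signals in L1236 (5.51 and 5.92, then 5.28 and 5.02). Its L1236 call was lost without L1236 vehicle 2 (0.191) or 4-OHT 2 (0.153). SLC41A2, a magnesium transporter, changed by -0.64, 1.12 and 0.48, and rose in KM-H2 (1.36) and L428 (1.78); its SUP-HD1 call was lost without SUP-HD1 vehicle 2 or either 4-OHT array (0.0925 to 0.214). CD83, a surface protein of activated B cells that NF-kB induces, read 8.55 and 8.58, then 8.34 and 8.28, in L1236. In SUP-HD1 it began at the same level, 8.58 and 8.53, and reached 9.79 and 9.88. CD83 rose in KM-H2 (1.17), L428 (0.72) and UHO-1 (0.70) too, and its fall of 0.26 in L1236 was lost without L1236 vehicle 2 (0.0501) or 4-OHT 2 (0.0723). BCL2A1, an inhibitor of cell death, changed by -0.52, 1.12 and 0.44 and fell in KM-H2 by 2.42, so L1236 was not alone in its direction. Its calls rested on UHO-1 4-OHT 1 and 2 and on SUP-HD1 vehicle 2 and 4-OHT 1 and 2 (0.0524 to 0.278 without each). The small nucleolar RNA SNORD51 changed by -0.50, 0.47 and 0.62 but stayed below 6 log2 units in all 12 arrays, near background; its UHO-1 call was lost without UHO-1 vehicle 2 (0.0695).

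GCLC, the catalytic subunit of the enzyme that starts glutathione synthesis, was picked after its values were seen because its difference, -1.55, was the most negative of the 43 outside the naming rule. In UHO-1 it went from 9.03 and 9.01 to 10.60 and 10.59, in SUP-HD1 from 9.24 and 8.96 to 10.03 and 9.91, and in L1236 from 9.56 and 9.65 to 9.33 and 9.24. L1236 started highest and ended lowest. The fall in L1236, 0.32, was lost without L1236 vehicle 2 (0.0757) or 4-OHT 2 (0.0867).

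FOXO1 transcripts themselves went opposite ways. In L1236 the arrays went from 10.63 and 10.50 to 10.76 and 10.91, in UHO-1 from 10.36 and 10.41 to 10.05 in both, and in SUP-HD1 from 10.27 and 10.46 to 10.06 and 9.99. The levels were close with vehicle and apart with 4-OHT. The changes were 0.27 ± 0.073 for L1236 (adjusted p = 0.0122), -0.33 for UHO-1 (0.00439) and -0.34 for SUP-HD1 (0.0093), a difference of 0.61 ± 0.089 (0.000134). Whether the probe set reads the transgene, the cell's own gene or both was not determined, so it is no check of the fusion. The L1236 call of FOXO1 was lost without L1236 vehicle 2 (0.124) or 4-OHT 2 (0.178), and that of SUP-HD1 without SUP-HD1 vehicle 2, 4-OHT 1 or 4-OHT 2 (0.0519 to 0.128).

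RUNX1, a transcription factor of blood lineages, was higher in L1236 (11.33 and 11.36) than in UHO-1 (8.78 and 8.76) or SUP-HD1 (8.47 and 8.68) before treatment. With 4-OHT it read 11.65 and 11.75, 8.52 and 8.49, and 8.27 and 8.26, so the gap widened. The difference was 0.64 ± 0.088 (adjusted p = 7.06e-05), and RUNX1 rose in KM-H2 too (0.55). PHF19, a subunit associated with Polycomb repressive complex 2, rose from 9.13 in both arrays to 9.85 and 9.80 in L1236. It fell from 8.59 and 8.65 to 8.41 and 8.36 in UHO-1 and from 9.26 and 9.21 to 9.0 and 8.92 in SUP-HD1, a difference of 0.95 ± 0.086 (8.17e-07). For both genes, the small falls in UHO-1 and SUP-HD1 did not hold up to leaving out arrays. RUNX1 left the class without any of the 4 UHO-1 arrays, SUP-HD1 vehicle 2 or either SUP-HD1 4-OHT array (0.0588 to 0.165), and PHF19 without any of the 8 arrays of those lines (0.067 to 0.278).

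TXNIP, a FOXO target in many cells, rose in L1236 from 10.79 and 10.73 to 11.46 and 11.37. It fell from 11.73 and 11.83 to 11.56 and 11.68 in UHO-1 and from 12.02 in both arrays to 11.70 and 11.76 in SUP-HD1. L1236 started lowest, and with 4-OHT the lines nearly met. The changes were 0.66 ± 0.055 (adjusted p = 1.9e-07), -0.16 (0.0479) and -0.29 (0.00353), a difference of 0.88. The UHO-1 or SUP-HD1 call of TXNIP was lost without UHO-1 vehicle 1 or 2, UHO-1 4-OHT 1 or either SUP-HD1 4-OHT array (0.0561 to 0.318).

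The other 8 of the 12 genes that rose in L1236 and fell in the other lines follow. The histone H4 genes H4C14 and H4C15 have identical values and count as 1 measurement: 12.32 and 12.20, then 12.54 and 12.67, in L1236, against a fall from 11.34 and 11.23 to 10.36 and 10.16 in UHO-1 and from 12.02 and 11.95 to 11.64 and 11.72 in SUP-HD1. H2AC21, a histone H2A gene, changed by 0.22, -0.59 and -0.35 in L1236, UHO-1 and SUP-HD1. PKMYT1, a kinase that restrains CDK1, changed by 0.44, -0.26 and -0.26. CEP55, needed for the last step of cell division, changed by 0.22, -0.24 and -0.33, NUP210, a nuclear pore protein, by 0.19, -0.57 and -0.28, and CDCA7L, a MYC-interacting nuclear protein, by 0.25, -0.25 and -0.49. Each of these genes left the class in at least 4 of the alternatives. The SUP-HD1 call of the H4 genes was lost without SUP-HD1 vehicle 1 (0.066) or 4-OHT 1 (0.171), and the others left the class without either SUP-HD1 4-OHT array or arrays of the other lines. FOXM1, a transcription factor of the cell cycle that was named after its values were seen, changed by 0.18, -0.24 and -0.21, and it kept the class in 2 of the 12 fits that leave out 1 array.

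KM-H2 and L428, which the choice of the 55 did not use and which share no arrays with the 3 lines, were read for the same genes. Of the 43 that fell in L1236, 28 rose and 0 fell in L428 (adjusted p below 0.05), where 12.2% of all genes rose and 17.8% fell, with a median change of 0.44 against -0.0066 over all genes. In KM-H2, 16 rose and 5 fell, against 9.96% and 12.2% of all genes, with a median of 0.12. Of the 12 that rose in L1236, counted as 11 because H4C14 and H4C15 have identical values, 7 fell and 0 rose in L428 (median -0.61), and 4 fell and 2 rose in KM-H2 (median -0.051). KM-H2 thus held genes of both directions: IRAG2, PLAAT4 and SLC41A2 rose there, FZD3 and PIK3CB fell as in L1236, and RUNX1 and PHF19 rose as in L1236.

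**Figure D3:**
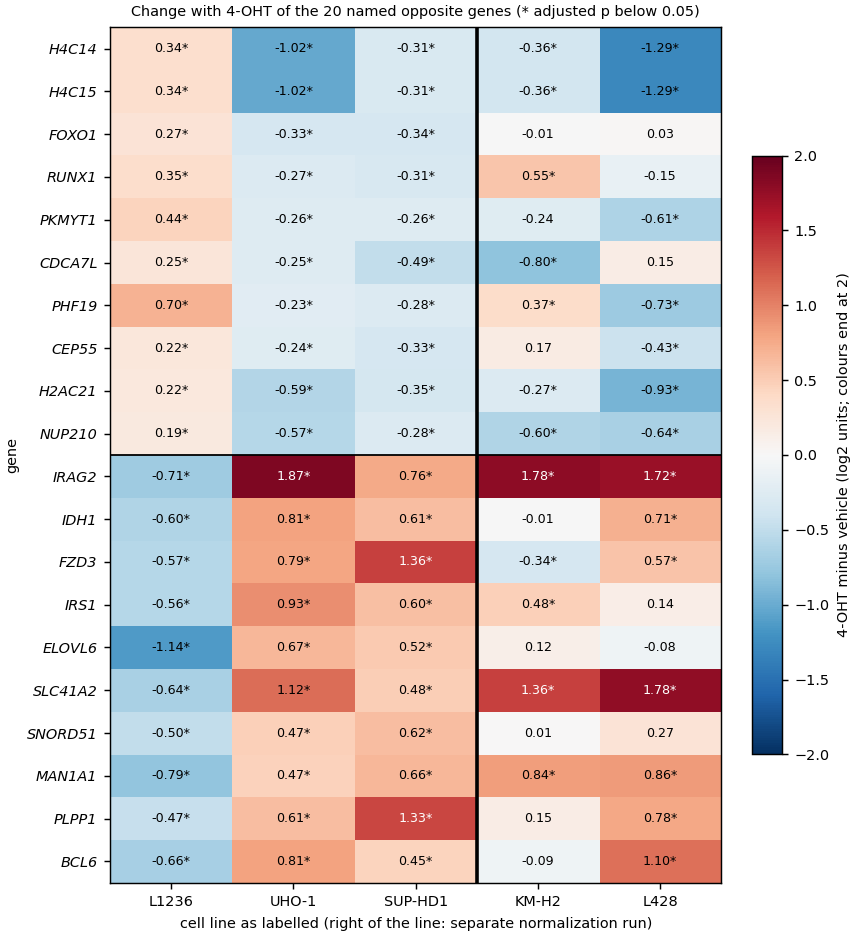
Change (4-OHT minus vehicle, log2 units, printed and coloured, colours ending at 2) of 20 named opposite genes (rows) in 5 lines (columns), with * for an adjusted p below 0.05. L1236 has the other sign from UHO-1 and SUP-HD1 in every row. Values with * fall on either side in KM-H2, as for FZD3 at -0.34 and IRAG2 at 1.78. In L428 they fall on the side of UHO-1 and SUP-HD1.

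The largest differences came from genes that rose strongly in L1236. PRDM1, the driver of plasma cell differentiation, read 5.06 and 5.59 with vehicle and 10.32 and 10.40 with 4-OHT in L1236. In UHO-1 it went from 9.76 and 9.70 to 10.29 and 10.11, and in SUP-HD1 from 9.48 and 9.46 to 9.95 and 9.81. L1236 started near background and reached a level slightly above theirs. The L1236 rise was 5.04 ± 0.12 (adjusted p = 4.06e-14), a size that is not exact because the vehicle signals lay near the floor of 5 log2 units, below which signals were taken as near background. UHO-1 rose by 0.47 (0.0132), and the SUP-HD1 change of 0.41 did not pass (0.0656). The difference of responses was 4.60 ± 0.15 (3.94e-12). In L1236, then, BCL6 fell while PRDM1 rose, and in UHO-1 both rose.

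Receptors and signalling genes followed. IL7R, the interleukin 7 receptor chain and a FOXO1 target in lymphocytes, went from 4.57 and 4.50 to 9.35 and 9.39 in L1236. In the other lines its changes, 0.27 and 0.54, did not pass, and UHO-1 stayed below the floor. EPHA4, an ephrin receptor, went from 5.44 and 5.21 to 9.68 and 9.48 in L1236, with changes of -0.27 and -0.02 that did not pass elsewhere. KLF2, a transcription factor of lymphocyte quiescence and trafficking, started at like levels in L1236 (7.55 and 7.58), UHO-1 (7.63 and 7.61) and SUP-HD1 (7.95 and 8.05). It reached 10.26 and 10.33 in L1236 only, a difference of 2.70 ± 0.10 (adjusted p = 2.16e-11).

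For the rest of the 8 most positive differences, L1236 rose from a low or moderate signal and the others stayed low. They were TC2N (4.00), the immune GTPase GIMAP4 (3.83), lysozyme, LYZ (3.63), the IgM Fc receptor FCMR (3.56) and PLAC8 (3.06). Where the starting signal was near or below the floor, as for PRDM1, IL7R, EPHA4, TC2N and LYZ, neither the size of the difference nor its place in this order is exact. GIMAP4 and PLAC8 reached the floor in 4 of the 12 arrays, so most of their values were near background and the same limit holds. LYZ, a myeloid marker, went from 4.37 and 4.18 to 8.07 and 7.79 in L1236. It passed the filter on low signals only through the L1236 4-OHT arrays, with 1 UHO-1 array (5.09) above the floor besides, so it had to differ and its call supports nothing. Over 5 myeloid markers the mean level in L1236 ran from 5.35 to 5.54 with vehicle and from 6.45 to 6.48 with 4-OHT. The difference of responses was called for 3 of the 4 tested, LYZ among them, against 20.6% of all genes. The higher mean level with 4-OHT was carried by LYZ and by CD68, a lysosomal protein of macrophages (7.14 to 8.31). CD14 (5.70 to 5.81) and CD163 (4.37 to 4.42, not tested) moved little in L1236, and CSF1R (5.74 to 5.86) had a difference of 0.42 beside a change in SUP-HD1 from 7.44 to 7.04. MRC1, a macrophage receptor outside the 5, fell in L1236 by 0.99. It reached the floor in 4 of the 12 arrays, so most of its values were near background too. Of 13 T cell markers, 3 were called higher and 1 lower, but 1 and 2 with median centring, and 1 and 1 when any 1 of 7 arrays was left out (L1236 vehicle 2, 4-OHT 1 or 4-OHT 2, UHO-1 vehicle 2 or 4-OHT 1, SUP-HD1 4-OHT 1 or 4-OHT 2). In either direction 30.8% of the 13 were called in the main fit, against 20.6% of all genes. In L1236 itself, 2 of the 13 rose and 3 fell, where 8.18% of all genes rose and 14.3% fell. The part of the myeloid or T cell markers in these results was not tested.

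**Figure D4:**
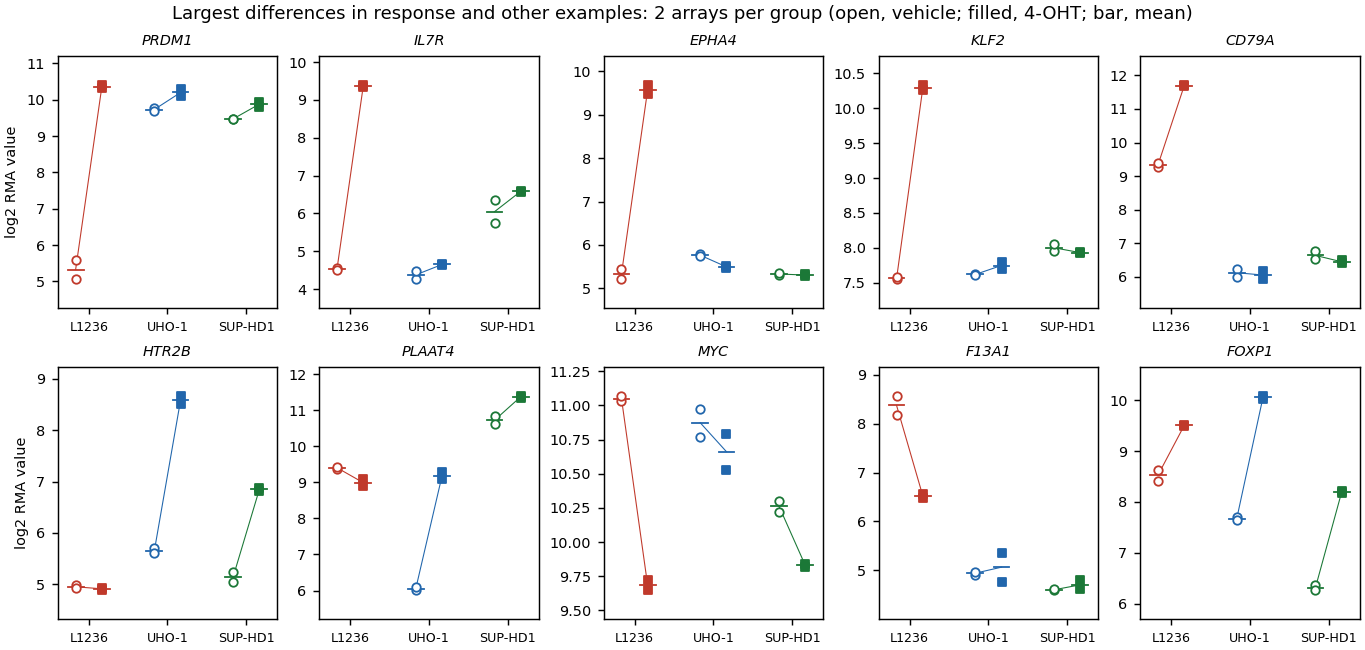
Log2 RMA values (y axis, range set for each panel) in the 12 arrays for 10 genes with large differences of responses, by line as labelled (x axis). Open circles are vehicle arrays, filled squares 4-OHT arrays, bars group means. PRDM1 and IL7R climb in L1236 to 10.40 and 9.39 at most, while HTR2B rises in UHO-1 and SUP-HD1.

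The 8 most negative differences had other shapes. HTR2B, a serotonin receptor, was near background in L1236 in both arms (4.98 and 4.92, then 4.93 and 4.89) and rose in UHO-1 from 5.71 and 5.60 to 8.67 and 8.51 and in SUP-HD1 from 5.24 and 5.04 to 6.88 and 6.82. PRL, the hormone prolactin, and P2RY14, a receptor for UDP sugars, rose by 5.09 and 4.44 in UHO-1. Their differences of -2.35 and -2.16 rest on UHO-1: against SUP-HD1 alone they were -0.11 (adjusted p = 0.823) and -0.0044 (0.994). RP1 and GPLD1 rose in UHO-1 and SUP-HD1 by unequal amounts, 2.85 and 0.85 for RP1 and 1.03 and 2.63 for GPLD1, and did not pass in L1236. F13A1, a coagulation factor subunit, fell in L1236 from 8.18 and 8.57 to 6.57 and 6.47 and was low elsewhere. PLAAT4 and IRAG2, described above, complete the 8.

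Genes of the MYC and ribosome biogenesis list fell further in L1236. MYC read 11.03 and 11.07, then 9.72 and 9.65, in L1236, a fall of 1.37 ± 0.080 (adjusted p = 2.33e-09), against -0.21 in UHO-1, which did not pass (0.0668), and -0.43 in SUP-HD1. In UHO-1 the arrays of the arms overlapped (10.97 and 10.77, then 10.79 and 10.53). Of 21 MYC and ribosome biogenesis genes, 18 moved lower in L1236 and 0 higher, with a median difference of -0.53 against 0.0081 over all genes. Over all genes, 13.7% moved lower and 6.85% higher. All 21 of the list fell in L1236, where 14.3% of all genes fell. In UHO-1 10 of them fell, against 8.75% of all genes, and in SUP-HD1 6, against 1.83%. NOP58, a core protein of ribosomal RNA modification, fell by 0.44 in L1236 and rose by 0.34 in UHO-1, and its change of 0.14 in SUP-HD1 did not pass. WDR43, a factor of small subunit assembly, fell in L1236 by 0.92.

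Cell cycle genes went the other way. Of 26 mitosis genes, 21 moved higher in L1236 and 0 lower, with a median difference of 0.42; with median centring it was 10 and 0, median 0.32. Over all genes, 6.85% moved higher and 13.7% lower. In L1236 19 of the 26 rose, where 8.18% of all genes rose and 14.3% fell. In UHO-1 1 rose and 6 fell, against 12.4% and 8.75% of all genes. In SUP-HD1 1 rose and 2 fell, against 3.37% and 1.83% of all genes. ASPM, a spindle pole protein, changed by 0.63, 0.08 and -0.24, a difference of 0.71 (adjusted p = 1.91e-05), and the proliferation marker MKI67 by 0.45, 0.00 and -0.15. Of 30 DNA replication genes, 13 moved higher and 1 lower (median 0.21), but 1 and 1 with median centring and 6 and 1 without an intensity trend. In this list the difference came mostly from the other lines: 4 rose and 1 fell in L1236, while 12 fell in UHO-1 and 15 in SUP-HD1. The gene that moved lower was MCM6, a helicase subunit, at -0.58.

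Cholesterol synthesis genes fell in L1236. Of 17, 12 moved lower and 1 higher, with a median of -0.45, against 13.7% and 6.85% of all genes. With median centring the counts were 12 and 1. DHCR7, the enzyme of the last step, changed by -0.97 in L1236 against 0.05 and 0.00, and squalene epoxidase, SQLE, by -0.68, 0.04 and 0.17. The gene that moved higher was INSIG1, which retains the sterol sensor and rose in L1236 by 1.09 and in SUP-HD1 by 0.96. Of 21 glycolysis genes 5 moved lower, among them HK2 (-0.65) and ENO1 (-0.35), and 2 higher. In either direction 33.3% of them were called, against 20.6% of all genes.

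The 39 FOXO-induced targets split, with 12 higher, 9 lower and a median of -0.0045. Over all genes, beside which this and the following lists stand, 6.85% moved higher and 13.7% lower. In this list KLF2, IL7R, CCR7 (1.12), a homing receptor, and TXNIP were higher, and BCL6 was lower. Among 24 B cell and germinal centre regulators, 5 moved higher and 4 lower. ID2 (2.09) and ID3 (1.5), inhibitors of E proteins, were higher, and BCL6, FOXP1 (-1.16) and TCF3 (-0.47) lower. FOXP1 rose in all 3 lines, least in L1236 (0.98, against 2.39 and 1.88). Among 18 B cell receptor signalling genes, 4 moved higher, led by CD79A (2.49; 9.28 and 9.39, then 11.71 and 11.68 in L1236) and PIK3CD (1.32), and 1 lower. Of 19 plasma cell and secretory genes, PRDM1 and EDEM1 (1.47) moved higher and 7 lower, among them the chaperones HSPA5 (-0.63) and HSP90B1 (-0.34).

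The counts of this paragraph also stand beside 6.85% higher and 13.7% lower over all genes. Insulin and PI3K signalling genes (26) gave 5 higher, led by the pseudokinase TRIB2 (1.75), and 7 lower, with IRS1 and PIK3CB among them. Of 25 interferon-induced genes, 7 moved lower and 1 higher, with a median of -0.18. GBP2, an immune GTPase, and IFI6 were opposite genes, at -1.30 and -0.90. All L1236 arrays of GBP2 lay below the floor of 5 log2 units (4.88 and 4.93, then 4.7 and 4.38). Its fall there is thus a change near background, and another probe set of GBP2 changed by -0.16 in L1236. In 24 NF-kB genes 7 moved lower, among them BCL2A1 (-1.30) and CD83 (-1.24), and 2 higher (0 with median centring), and in 17 BCL2 family genes 5 lower, among them the death inducer PMAIP1 (-1.21), and 3 higher. Chemokine and trafficking genes (31) gave 11 higher and 4 lower; RGS1, S1PR1 (1.18) and ITGB7 (1.37) were higher. RGS1, a brake on chemokine receptors, rose in all 3 lines, by 3.77, 1.94 and 0.70. Cytokine receptor and JAK-STAT genes (28) gave 6 higher, among them IL4R (1.85), and 5 lower.

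The remaining lists were TNF superfamily genes (28; 4 higher, 3 lower), G1 regulators (18; 4 and 2), MHC class II genes (11; 3 and 1), myeloid markers (8; 3 and 1), Hodgkin markers (15; 1 and 3), stromal and endothelial markers (9; 1 and 2) and housekeeping genes (11; 0 and 3). With median centring the TNF superfamily counts were 1 and 4 and the MHC class II counts 0 and 1, and without L1236 4-OHT 2 they were 1 and 2 and 1 and 1. In either direction 25% of TNF superfamily genes, 26.7% of Hodgkin markers and 27.3% of housekeeping genes were called. For the B cell receptor list above it was 27.8%. These shares lie near the 20.6% of all genes. Some genes stand in more than 1 list, and the myeloid markers called higher include LYZ, whose call supports nothing.

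**Figure D5:**
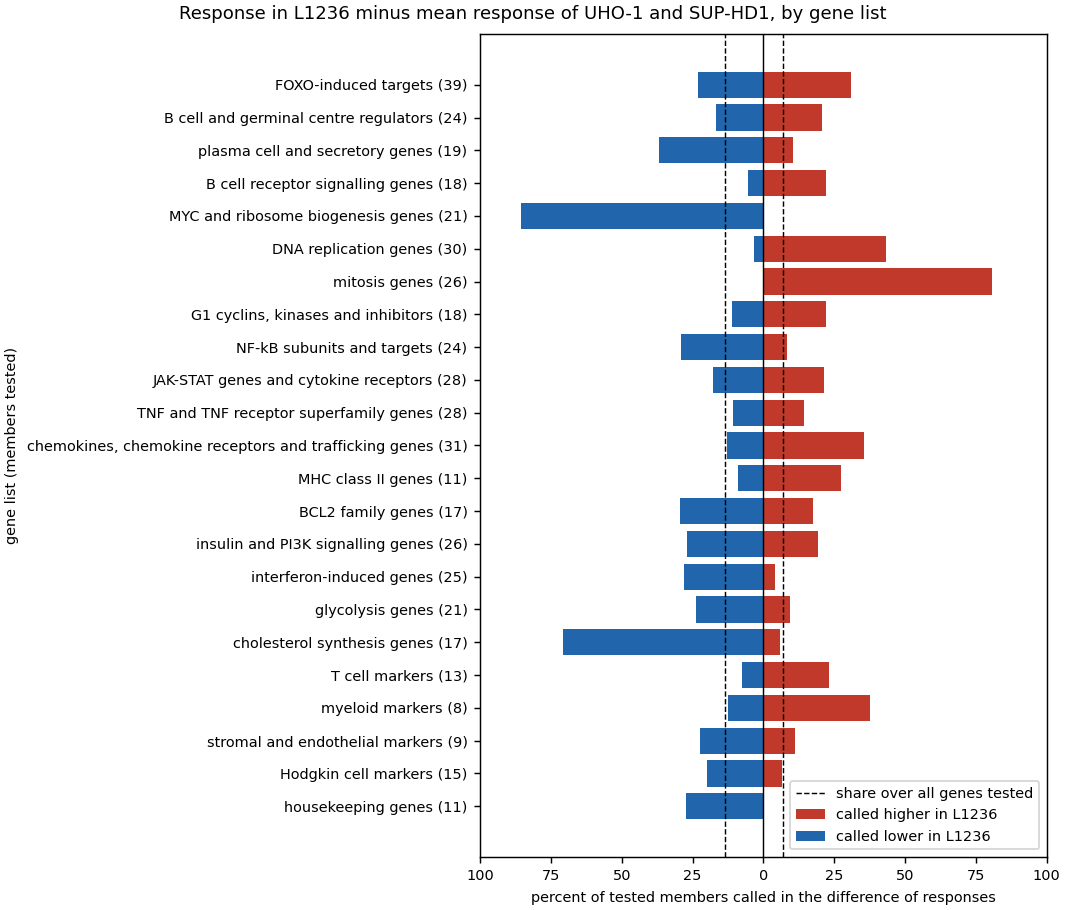
Percent of the tested members of each of the 23 gene lists (y axis) whose difference of responses was called, higher in L1236 (red, right of 0) or lower (blue, left of 0) on the x axis; dashed lines are the shares over all genes. The mitosis list has 21 of 26 members higher, the MYC and ribosome biogenesis list 18 of 21 lower and the cholesterol synthesis list 12 of 17 lower, against 6.85% and 13.7% of all genes.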

How the data were processed

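Human Gene 1.0 ST arrays of total RNA were used. Per the labels and design text, the authors deposited log2 values that Expression Console made by robust multichip averaging (RMA). RMA corrects background, normalises between arrays and summarises probes, so a shift of most genes in 1 group would be removed. No build for the array is given in the sources used here. Sorted values differed by at most 0.204 within the 12 arrays and by at least 0.712 from those of KM-H2 and L428, which were fitted separately.

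Of 33268 probe sets, 19457 had 1 gene symbol, 1751 several and 12060 were not listed. RefSeq's gene table (GRCh38.p14) held 19426 of their Entrez identifiers and changed 0 symbols. Of several probe sets per gene (767 genes), that of highest mean over the 12 arrays was used. Genes at 5 log2 units or more in at least 2 of 12 arrays were kept: 15654 of 18416.

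A model of 6 group means was fitted with limma 3.58.1 in R 4.3.3 (lmFit, contrasts, eBayes with trend; 6 residual and 10.4 prior degrees of freedom), two-sided, with Benjamini-Hochberg adjustment over all genes of a contrast at 0.05. The code was tested on simulated data. A gene was called opposite where it passed in the difference of responses and in each of 3 lines, with L1236 of the other sign. Named were the 10 opposite genes in each direction with the largest smallest change, the 8 most positive and 8 most negative differences, BCL6, FOXO1, PRDM1, MYC and KLF2, and up to 5 called members per list. Members and lists were chosen with earlier results of these data known. Alternatives were the floor, scaling, probe set choice, the trend, all 20 arrays, the replicate number as a block, each comparison line alone and each array left out. An added one, chosen after seeing the data, tested every probe set.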

Additional observations from a re-analysis of the deposited data

Results flagged for a closer look

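Each gene below was listed because its response differed between L1236 and the mean of UHO-1 and SUP-HD1 by the test of that difference, which is the comparison of the report; values are log2 units. Genes that fell in L1236 and rose in both others were PLAAT4 (-2.30), IRAG2 (-2.03), ELOVL6 (-1.74), FZD3 (-1.64), SLC41A2 (-1.45), PLPP1 (-1.44), MAN1A1 (-1.36), IRS1 (-1.33), IDH1 (-1.31), BCL6 (-1.29) and SNORD51 (-1.05). Genes that did the reverse were H4C14 and H4C15 (both 1.01), PHF19 (0.95), PKMYT1 (0.70), H2AC21 (0.69), RUNX1 (0.64), NUP210 (0.62), FOXO1 (0.61), CDCA7L (0.61) and CEP55 (0.51). Without opposite calls in all 3 lines, PRDM1 (4.60), IL7R (4.43), EPHA4 (4.40), TC2N (4.00), GIMAP4 (3.83), LYZ (3.63), FCMR (3.56), PLAC8 (3.06) and KLF2 (2.70) were higher in L1236, and HTR2B (-2.36), PRL (-2.35), P2RY14 (-2.16), F13A1 (-1.96), RP1 (-1.93), GPLD1 (-1.92) and MYC (-1.05) lower.

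Probe sets with no gene in the platform annotation were outside the report's test. When every probe set was tested, 499 of 6858 such probe sets passed (7.28%), against 15.3% of those with 1 symbol, and 0 were opposite in all 3 lines.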

How the results depend on the processing

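Named genes and all 55 opposite genes kept the direction of their difference of responses in every alternative in which they were present. For the opposite genes the difference also stayed past the threshold, 55 of 55 also when every probe set was tested, where 26 kept the class. Over named, listed and opposite genes together, 3786 values stayed on the same side of the threshold, 127 no longer passed and 0 reversed. Membership of the opposite class depended on more.

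Median centring left 566 genes higher in L1236 and 28 opposite, 0 of them up and 28 down in L1236. Without the intensity trend 18 were opposite, 0 up and 18 down. Counts of opposite genes up in L1236 were 20 with a floor of 8, 22 with cyclic loess and 41 with quantile normalisation, which gave 96 opposite genes in all. With SUP-HD1 alone as the comparison 2020 genes passed, 1248 of them lower. With every probe set tested, 26 were opposite, 5 up and 21 down. The causes were not tested.

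Leaving out 1 array at a time, which leaves an arm with a lone array assumed to vary like the others, gave 1973 to 3880 called genes, 759 to 1455 higher and 1214 to 2544 lower. Opposite genes numbered 16 to 61, with 1 to 10 up and 15 to 54 down in L1236, and UHO-1 against SUP-HD1 gave 256 to 817.

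Arrays with the same number deviated from their group means with a correlation of -0.56 (L1236), 0.30 (UHO-1) or 0.28 (SUP-HD1), so the numbers were not taken as pairs. With line by number as a replicate block 2967 genes passed (966 higher, 2001 lower), with 50 opposite genes (11 up, 39 down) and 498 in the comparison of UHO-1 and SUP-HD1. With a common number as the block they were 3245 (1067 and 2178), 55 (11 and 44) and 546. Signals near background limit low genes such as SNORD51, and GBP2 in L1236.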
